A study of Oryzias latipes with 4 samples.

Results

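The lpin2 locus of medaka chromosome 17, its paralogs on chromosomes 5 and 20 and the gene for corticotropin-releasing factor (CRF) receptor 2 are described here as 7 members. They are the unnamed feature MEDAKA053207, which was taken by its ID, and 6 genes, which were taken by the gene tag of each row's BLAST hit. Of these, 3 genes are described as LPIN2 (LOC101161835, lpin2 and LOC101174419), 2 are the named neighbours of the chromosome 17 copy (LOC101161583 and LOC101162075), and LOC101157488 is described as CRF receptor 2. The members hold 18 of the 93896 rows of the deposited table, or 7 of 62652 units once rows with the same tag are summed. They were compared between female medaka (Oryzias latipes) kept throughout under short days (SD) and females transferred from short to long days (LD), taken 16 h after that transfer. All fish came from a local dealer and had lived under short days first. Each group had 2 libraries, called SD 1, SD 2, LD 1 and LD 2, made from a block of ventral telencephalon with hypothalamus and pituitary, with 6 fish collected per condition. How those fish map to the libraries, and whether they were pooled, is not stated in the labels. The p-values therefore reflect only differences among 4 libraries and may include technical variation.

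Lipins are enzymes that turn phosphatidate into diacylglycerol, the branch point between storage fat and membrane phospholipids, and they also act in the nucleus as partners of transcription factors. CRF receptor 2 is a cell surface receptor of the class B family that couples to G proteins. It binds urocortins, and in mammals it has been studied for its part in stress behaviour and feeding. A long noncoding RNA named LDAIR (long day-induced antisense intronic RNA) is known from medaka. The table gives neither a strand nor a name for MEDAKA053207, so it is called by its ID throughout.

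Levels are in FPKM, the fragments per kilobase of a feature scaled to the mapped total, as deposited. Changes are differences in mean log2(FPKM + 1), LD minus SD, which understate the change of low features. Units with a mean of at least 1 FPKM were tested with limma across the whole table, and a unit was called where its Benjamini-Hochberg adjusted p was under 0.05. Libraries were alike in their sums (458697 to 463066 FPKM). Going by the worth of 1 fragment in the low values, SD 2 was the deepest, at 1.47 times the depth of SD 1, against 1.1 times for LD 1 and 1.09 times for LD 2. Defining markers of the dissected block were present in every library: the summed level of 9 neuronal marker genes was 1407 to 1447 FPKM, that of 5 telencephalic genes 39.4 to 46.7, that of 6 hypothalamic genes 340.8 to 595.2, and that of 8 pituitary genes 1996 to 3390. The hypothalamic sum was lowest in SD 1, at 340.8, with the other 3 libraries at 543.7 to 595.2. SD 1 was lowest for the isotocin gene LOC101160739 (103.5 FPKM) and for oxt (53.9). It was not lowest for npy, at 159.0 FPKM in SD 1 against 121.0 in LD 1. The pituitary sum was 3088 and 3390 FPKM in SD 1 and SD 2 and 2198 and 1996 in LD 1 and LD 2, so those groups did not overlap. Much of that gap came from somatotropin, LOC101171460, the one unit called in the fit. Without it, the sum of the other 7 was 2175 and 2523 against 1935 and 1722, still with no overlap between the groups. The LD pair lay below the SD pair for 3 of these 7 genes, against 20.9% of all units tested. For the other 4 the groups overlapped. In a tissue block, fewer cells of a type and less RNA per cell cannot be told apart.

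MEDAKA053207 was a scarce feature with its highest value in a long-day library. It spans chromosome 17 from 29451816 to 29453439 and has a length of 807 bases in a span of 1624, so its model leaves out part of the span. It begins 896 bases into the main lpin2 row, MEDAKA053203 (29450920 to 29468975), and ends 770 bases before the first coding base of the lpin2 hit. It touches 0 of the 19 coding segments of that hit, which lies on the plus strand. Whether it falls in an intron or in an untranslated exon of lpin2 cannot be read from the table.

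The level of MEDAKA053207 was 0.0564 FPKM in SD 1 and 0.252 in SD 2, then 0.812 in LD 1 and 0.255 in LD 2. LD 1 stood apart, while LD 2 was nearly level with SD 2, so the groups are barely separated. With the worth of 1 fragment taken from each library, these levels correspond to about 1.0, 6.6, 15.9 and 4.9 fragments. The means ± standard deviation were 0.154 ± 0.138 FPKM for short days and 0.534 ± 0.394 for long days (n = 2 libraries per group), and the log2 difference was 0.39. That feature lies under the expression filter and was not tested in the main fit. An exact two-sided permutation test over libraries gave p = 0.333, the smallest that 2 against 2 libraries allow. In the fit with no filter, its limma adjusted p was 0.865, and without LD 1 the log2 difference was 0.13. Among the 10535 rows with a mean of 0.1 to 1 FPKM, 14.8% likewise had the LD pair above the SD pair. As a share of the lpin2 row around it, MEDAKA053207 stood at 0.225% and 0.902% (SD 1, SD 2) and at 2.84% and 0.867% (LD 1, LD 2). That share overlapped between the groups. LD 1 was also the library with the highest summed level of 10 glial marker genes (1658 FPKM, against 996.6 to 1221 in the others). Its myelin genes were highest there, as was LOC101173548, a glial fibrillary acidic protein gene (85.01 FPKM, against 65.18 to 66.34 elsewhere). In contrast, slc1a2 was lowest there (352.9 FPKM, against 357.0 to 392.0 elsewhere). LOC101167791, which has the same description as slc1a2, was highest in LD 2 (1.422 FPKM). The hemoglobin, hypothalamic, skeletal muscle and neuronal sums likewise peaked in LD 1 (9130, 595.2, 19.6 and 1447 FPKM). The pituitary, telencephalic and eye sums did not. The neuronal margin was small, with 1407 to 1431 FPKM in the other libraries. Among the hypothalamic genes, oxt and hcrt were highest in LD 1 (270.3 and 9.702 FPKM). LOC101160739 was highest in LD 2 (308.1), npy was lowest in LD 1 (121.0), and both agouti-related protein genes were highest in SD 1. The part of any of these cell types in the values of MEDAKA053207 was not tested. Reads of lpin2 pre-mRNA and of a separate transcript inside it cannot be told apart in the table.

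**Figure D1:**
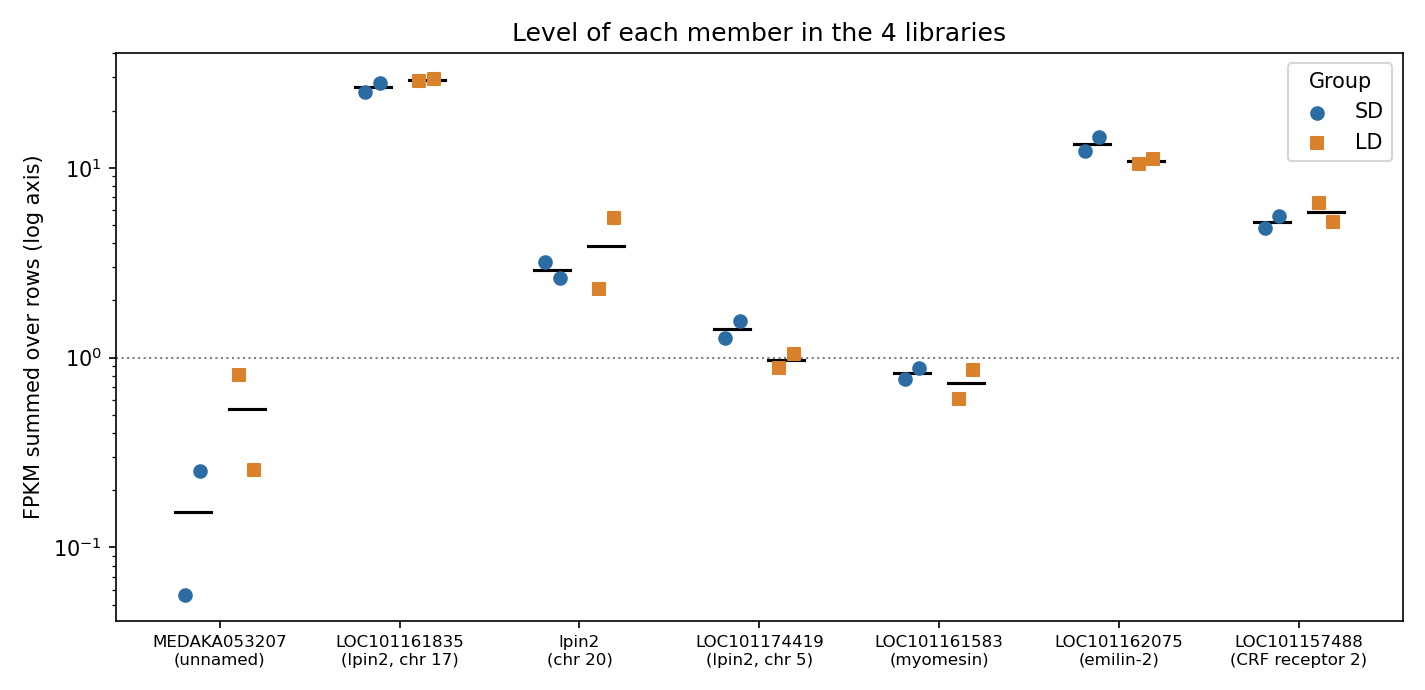
Level of each of the 7 members in each library, as FPKM summed over the rows of a gene on a log axis. Circles are the 2 SD libraries, squares the 2 LD libraries, short bars the group means and the dotted line the filter of 1 FPKM. MEDAKA053207 runs from 0.0564 to 0.812 FPKM with LD 1 the highest, and LOC101161835 stays between 25.03 and 29.4.

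The chromosome 17 lpin2 gene, LOC101161835, was the most abundant lipin measured, and it was not called. It stood at 25.03 and 27.9 FPKM in SD 1 and SD 2 and at 28.6 and 29.4 in LD 1 and LD 2. The LD pair exceeded the SD pair by a small margin. The log2 change was 0.13 with a standard error of 0.08 and a 95% interval from -0.09 to 0.34 (limma adjusted p = 0.818). The row MEDAKA053203 carried its whole value, at about 3074 to 5052 fragments per library. The second row with this tag, MEDAKA053215 (29454290 to 29460601), was listed at 0 in all 4 libraries.

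The copy with the symbol lpin2, on chromosome 20 at 20447373 to 20460794, varied more within LD than within SD. Its levels were 3.17 and 2.63 FPKM under short days and 2.29 and 5.46 under long days. LD 1 was the lowest library and LD 2 the highest, so the SD values lay inside the LD range. The log2 change was 0.24 with an interval from -0.62 to 1.11 (limma adjusted p = 0.911). It was -0.24 without LD 2 and 0.73 without LD 1. The row MEDAKA090135 held nearly all of it, and MEDAKA090154 was listed at 0.0231 FPKM in SD 2 and at 0 elsewhere.

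LOC101174419, the lpin2 copy on chromosome 5 (30151715 to 30168153), was the scarcest of the 3. It stood at 1.26 and 1.56 FPKM in the SD pair against 0.884 and 1.05 in the LD pair, so the LD pair lay below the SD pair. The mean of LD alone, 0.966 FPKM, is under the filter, which the gene passed through its SD values. The log2 change was -0.29, with an interval from -0.78 to 0.19 (limma adjusted p = 0.818). Its second row, MEDAKA041402, was listed at 0 throughout. The unnamed row MEDAKA041390, which lies inside this gene, was also listed at 0 in every library, and no unnamed row lies inside the span of the chromosome 20 gene.

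Summed over the 3 genes, lpin2 stood at 29.5 and 32.1 FPKM with short days and 31.8 and 35.9 with long days. LOC101161835 supplied 84.95% and 86.98% of this sum in SD 1 and SD 2, and 90.03% and 81.9% in LD 1 and LD 2. The spread within LD thus spans that within SD. With the genes described as LPIN1 added (LOC101171318 and lpin1), the lpin2 genes made up between 57.5% and 65.4% of all lipin FPKM. That share uses summed rows, so its size depends on how the rows of each gene are weighted.

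The neighbour before lpin2, LOC101161583, was detected in all 4 libraries at a low level per length. Its rows lie between 29416469 and 29447507, and their hits are described as M-protein or myomesin-1, proteins of the M band that holds thick filaments together in striated muscle. The row MEDAKA053204 stood at 0.774 and 0.882 FPKM under short days and 0.606 and 0.855 under long days. Over its 4927 bases, these levels correspond to about 83.8, 140.7, 72.3 and 101.1 fragments. The groups overlapped, and the gene lies under the filter (exact two-sided permutation p = 0.667). The other 3 rows of this gene were listed at 0. The summed level of 8 skeletal muscle marker genes was 10.8 and 16.99 FPKM in the SD pair against 19.6 and 11.6 in the LD pair, of which 2 genes reached a mean of 1 FPKM and 1 was listed at 0.

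The neighbour after lpin2, LOC101162075, encodes EMILIN-2, a glycoprotein of the extracellular matrix. Its rows begin 818 bases past the last base of the lpin2 row, and its hit lies on the minus strand, so the 3′ ends of lpin2 and emilin-2 face each other. Summed over rows, it stood at 12.3 and 14.5 FPKM with short days and 10.5 and 11.1 with long days. This sum adds rows that cover separate pieces of the gene and is not a level per length. Weighted by length, the level was 5.275 and 6.23 FPKM with short days and 4.434 and 4.725 with long days. The LD pair lay below the SD pair. The log2 change of the sum was -0.28 with a standard error of 0.11 and an interval from -0.56 to 0.0036 (limma adjusted p = 0.783). The summed level of the pituitary markers was lower in LD as well (3088 and 3390 against 2198 and 1996 FPKM), and its part in the values of emilin-2 and of the chromosome 5 lpin2 copy was not tested.

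The 5′ and 3′ rows of emilin-2 had different patterns over the libraries. MEDAKA053218 (29483800 to 29489946), at the 5′ end of the gene with 4 of its 9 coding segments, stood at 9.20 and 10.6 FPKM under short days and 6.86 and 7.66 under long days. MEDAKA053219 (29469793 to 29474014), at the 3′ end with the other 5 segments, stood at 3.06 and 3.91 in the SD pair against 3.61 and 3.41 in the LD pair. The 5′ row had a log2 change of -0.40, with an interval for that row alone from -0.70 to -0.10 (limma adjusted p = 0.796). The 3′ row had a change of 0.01, from -0.37 to 0.40 (limma adjusted p = 0.989). The ratio of the 5′ to the 3′ row was 3.004 and 2.71 with short days and 1.90 and 2.25 with long days, and those ranges do not overlap (exact two-sided permutation p = 0.333). That ratio was formed after the values were seen. MEDAKA053226, which overlaps the 5′ row, was listed at 0 in SD and at 0.0479 and 0.0814 FPKM in LD.

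An unnamed row between these, MEDAKA053224, had the largest log2 difference of the rows within 100000 bases of MEDAKA053207 and was picked out after its values were seen. It lies at 29475793 to 29476194, is 402 bases long, and is 2652 bases from the nearest coding segment of the emilin-2 hit. It stood at 1.23 and 1.69 FPKM under short days and 0.0834 and 0.262 under long days, or about 10.9, 21.9, 0.8 and 2.5 fragments. Both SD libraries were well above both LD libraries. The log2 difference was -1.07. Its mean is under the filter, and in the fit with no filter the limma adjusted p was 0.832 (95% interval of that row alone -1.56 to -0.57). Among rows with a mean of 0.1 to 1 FPKM, 17.8% likewise had the LD pair below the SD pair.

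**Figure D2:**
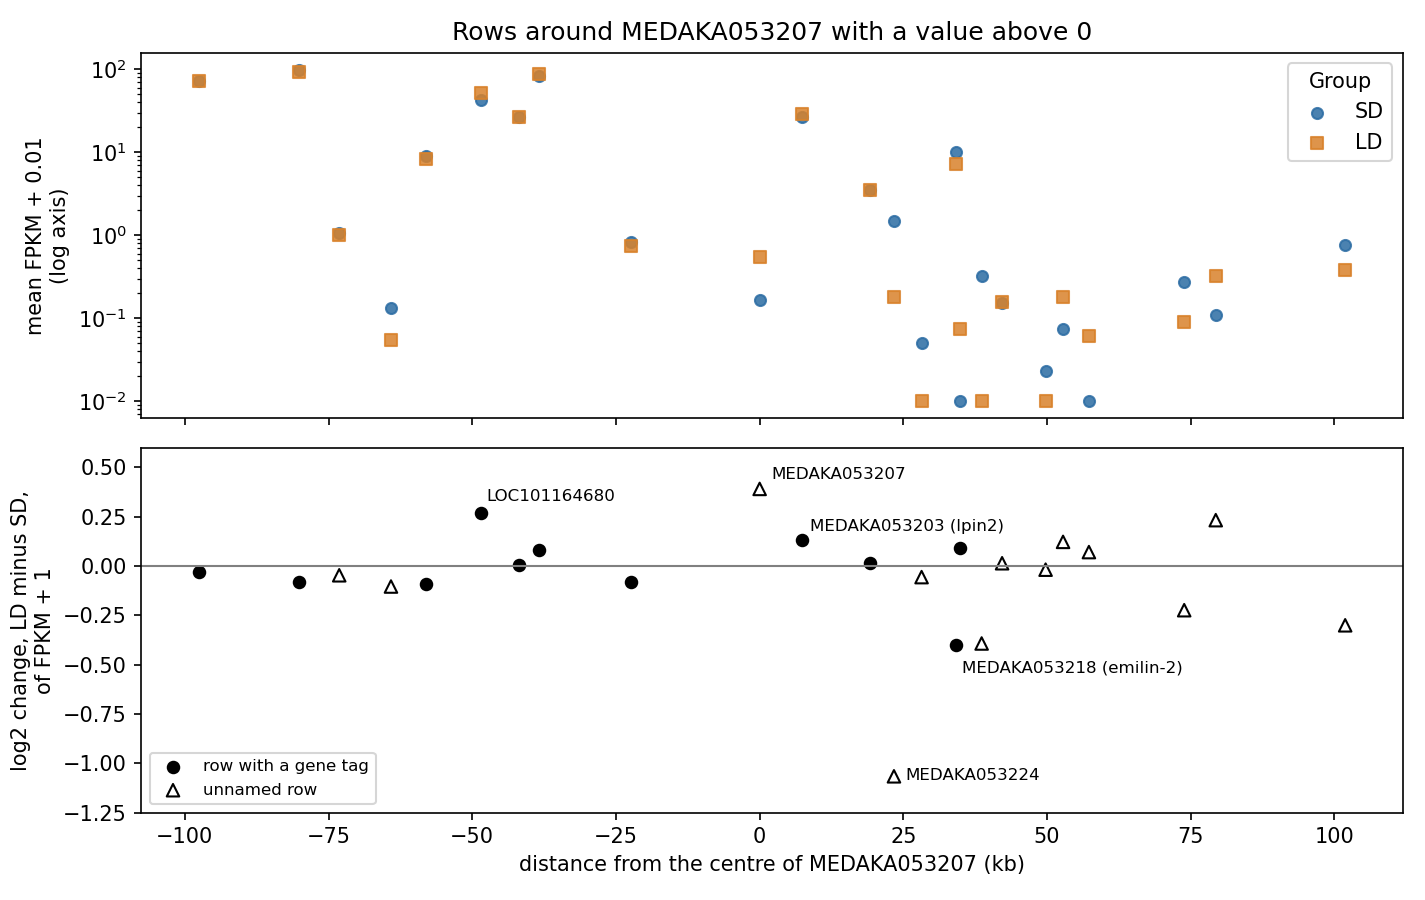
Rows within 100000 bases of MEDAKA053207 that were above 0 in any library, by distance of their centres from its centre. Upper panel, mean FPKM + 0.01 of each group on a log axis (circles SD, squares LD), and lower panel, log2 change of FPKM + 1, LD minus SD (filled circles rows with a gene tag, open triangles unnamed rows). MEDAKA053207 at 0.39 and MEDAKA053224 at -1.07 are the ends of the range.

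In that window, 34 rows were listed, 17 of them with tags of 8 genes, and 10 were at 0 in all libraries. Of the 10 rows that were tested, 0 were called (0.0307% of all rows tested), and 2 had an unadjusted limma p under 0.05, as did 6.08% of all rows tested. The median log2 change of the tested rows was -0.01, against -0.02 over all rows tested. The row with a change of 0.27 was LOC101164680, which encodes charged multivesicular body protein 5, a part of the machinery that buds vesicles into endosomes. It stood at 41.9 and 43.1 FPKM in the SD pair against 52.2 and 50.7 in the LD pair (limma adjusted p = 0.796). LOC101165346, a myosin regulatory light chain, was at 80.9 and 82.6 with short days and 89.3 and 84.1 with long days. The co-chaperone gene bag1 was at 26.5 and 26.1 FPKM under short days and 25.9 and 26.9 under long days. The delta opioid receptor gene LOC101164436 stood at 8.87 and 9.002 in the SD pair against 9.31 and 7.45 in the LD pair, and its other row, MEDAKA053210, was at 0. The proton pump gene atp6v1h had a row at 76.2 and 69.5 with short days and 70.7 and 71.6 with long days, another at 98.1 and 99.6 against 99.2 and 88.1, and MEDAKA053211 at 0. The unnamed row MEDAKA053205, with a mean just over 1 FPKM, was at 0.780 and 1.36 under short days and 1.06 and 0.912 under long days. For bag1, the opioid receptor, atp6v1h and MEDAKA053205 the groups overlapped.

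CRF receptor 2, LOC101157488, was present at a low level in all 4 libraries and was not called. Its rows lie on chromosome 17 between 28220964 and 28292366, 1158554 bases before the lpin2 row, and the hit, with 12 coding segments, is on the minus strand. Summed over rows, the gene stood at 4.805 and 5.57 FPKM in the SD pair against 6.51 and 5.21 in the LD pair. LD 1 was the highest library and LD 2 lay between the SD libraries. The means ± standard deviation were 5.19 ± 0.543 and 5.86 ± 0.925 FPKM (n = 2 libraries per group). The log2 change was 0.14 with a standard error of 0.14 and an interval from -0.23 to 0.51 (limma adjusted p = 0.870). It was 0.01 without LD 1.

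The receptor gene is split over 4 rows that cover separate pieces, except that MEDAKA090945 and MEDAKA090943 overlap. Its summed FPKM thus counts the gene more than once and is not a level per length. MEDAKA090946, at the 3′ end with 6 coding segments and 1188 bases, stood at 1.86 and 1.91 FPKM with short days and 3.08 and 2.12 with long days. It was the one row of the gene in which the LD pair exceeded the SD pair (log2 change 0.31, interval from -0.17 to 0.79, limma adjusted p = 0.816). MEDAKA090944, with 2 coding segments, was at 1.59 and 2.37 under short days and 1.82 and 1.73 under long days. MEDAKA090945, at the 5′ end with 2 coding segments, was at 1.36 and 1.301 in the SD pair against 1.61 and 1.35 in the LD pair. Both of these overlapped between groups, and they rest on about 11.7 to 25.7 fragments per library, against 48.6 to 88.7 for the 3′ row. MEDAKA090943, which touches 1 coding segment, was listed at 0 throughout. Weighted by length, the level of the gene was 1.32 and 1.44 FPKM with short days and 1.98 and 1.47 with long days.

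**Figure D3:**
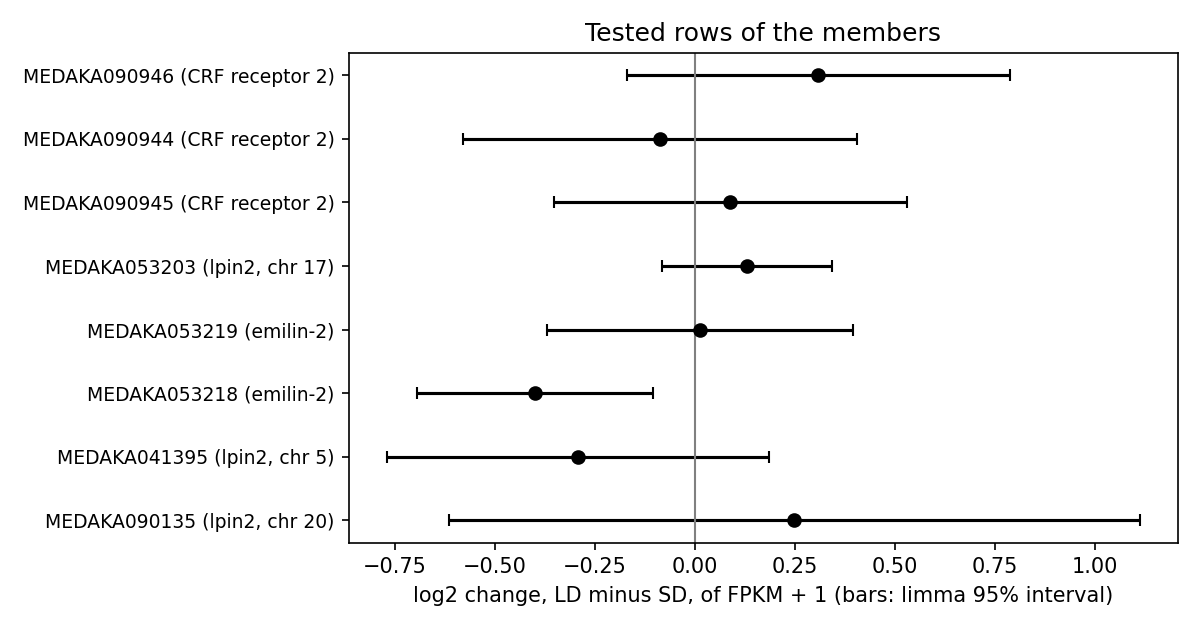
Log2 change of FPKM + 1, LD minus SD, of the 8 tested rows of the members, with the 95% interval of the limma fit for each row alone. The interval of MEDAKA053218 lies below 0 (-0.70 to -0.10) and those of the other 7 rows include 0.

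Within 100000 bases of the receptor rows, a window chosen after the values were seen, 28 rows were listed. Of the 9 tested, 0 were called (0.0307% of all rows tested). The LD pair exceeded the SD pair in 2 of the 9, MEDAKA090946 and the row of thoc1, against 15.9% of all rows tested. It lay below the SD pair in 2, both of rock1, against 21.3%. The nearest abundant gene, aqp1, encodes the water channel aquaporin-1. Its main row stood at 17.7 and 26.7 FPKM under short days and 33.7 and 25.1 under long days (limma adjusted p = 0.801). The summed rows of CRF receptor 2 and the main row of aqp1 had the same order over the libraries. SD 1 was lowest, then LD 2, SD 2 and LD 1. For the receptor, that order depends on how its rows are weighted. Weighted by length, the receptor had LD 2 above SD 2 (1.47 against 1.44 FPKM), as did its row MEDAKA090946 (2.12 against 1.91). The summed level of 9 hemoglobin genes, the blood markers, had the order of the summed receptor rows. It was 6086 and 8367 FPKM in the SD pair against 9130 and 7412 in the LD pair. Of those genes, 4 reached a mean of 1 FPKM and 2 were listed at 0. Of these 4, gb and LOC101170468 had that order. LOC101174997 was highest in LD 2 (1924 FPKM) and LOC101155030 in SD 1 (11.55). The hypothalamic and the skeletal muscle sums had the same order over the libraries. Among the 6 hypothalamic genes, only oxt had that order. LOC101160739 was highest in LD 2 (308.1 FPKM), hcrt was lowest in LD 2 (6.09) and npy was lowest in LD 1 (121.0). Both agouti-related protein genes were highest in SD 1 (6.53 and 10.35 FPKM). Neither skeletal muscle gene with a mean of at least 1 FPKM had that order. The part of these cell types in the receptor values was not tested. Beyond aqp1, thoc1, a subunit gene of the THO complex that packages new mRNA, was at 16.8 and 16.7 with short days and 17.8 and 17.7 with long days, and the gene usp14, for a deubiquitinating enzyme of the proteasome, at 21.4 and 22.4 against 22.3 and 22.9. The kinase gene rock1 had a row (MEDAKA090931) at 11.1 and 11.3 FPKM against 10.6 and 11.01, and another (MEDAKA090935) at 6.98 and 7.01 against 6.78 and 6.51, both with the LD pair below the SD pair. The parathyroid hormone receptor gene pth1r (MEDAKA090956) was at 1.36 and 2.13 against 1.67 and 1.63, with overlap.

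Over the members, 5 of 7 genes passed the filter and 0 were called, where 0.00587% of the 17030 units were called in the same fit, 1 unit lower in LD and 0 higher. At an unadjusted limma p under 0.05 there were 0 of the 5 members, against 6.34% of all units. By summed FPKM, the LD pair exceeded the SD pair in 1 of the 5, against 16.4% of all units tested, and lay below it in 2 of the 5, against 20.9%. Of these 2, LOC101174419 passed the filter through its SD values. Row by row, 8 of 18 member rows passed the filter, 6 were listed at 0 in every library, and 0 were called, against 0.0307% of the 22810 rows tested. The groups did not overlap in 4 of these 8 rows, 2 higher in LD (15.9% of all rows tested) and 2 lower (21.3%). The lower rows include MEDAKA041395 of LOC101174419, which also passed the filter through its SD values. For 1 of the 8 rows, MEDAKA053218, the unadjusted limma p was under 0.05. A p above the threshold does not show that levels were equal, and the interval of each gene gives the range of change that its fit allows.

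By level per length, using the most abundant row of each gene, the order was LOC101161835 (25.03 to 29.4 FPKM), emilin-2 (6.86 to 10.6), lpin2 of chromosome 20 (2.29 to 5.46), CRF receptor 2 (1.86 to 3.08), LOC101174419 (0.884 to 1.56), LOC101161583 (0.606 to 0.882) and MEDAKA053207 (0.0564 to 0.812). The ranges of lpin2 and CRF receptor 2 overlap, as do those of LOC101161583 and MEDAKA053207. The lowest library of LOC101174419 is nearly level with the highest of LOC101161583.

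No gene of the CRF system was called. Of the 9 genes in that list, CRF receptor 2 among them, 6 were tested, 0 were called in either direction (0 at an unadjusted limma p under 0.05), 2 were higher and 4 lower in LD, and the median log2 change was -0.04 against -0.01 over all units tested. Among the ligands, crh, the precursor of CRF, stood at 63.4 and 75.8 FPKM under short days and 65.1 and 72.7 under long days. The urocortin gene ucn was near the filter, at 1.45 and 0.986 in the SD pair against 1.16 and 1.49 in the LD pair. The gene ucn2, whose product binds CRF receptor 2 in mammals, was under the filter at 0.467 and 0.898 in SD, 0 in LD 1 and 0.314 in LD 2, and ucn3 and a second CRF gene (LOC101166988) were listed at 0. The binding protein genes, whose products hold CRF away from its receptors, stood at 27.0 and 21.8 with short days and 19.6 and 22.7 with long days (crhbp) and at 19.1 and 27.3 against 21.3 and 22.4 (LOC101156980). CRF receptor 1, LOC101166997, was at 3.90 and 4.50 under short days and 3.40 and 3.70 under long days, with a log2 change of -0.19 (limma adjusted p = 0.824). The ratio of receptor 2 to receptor 1, formed after the values were seen, was 1.23 and 1.24 in the SD pair against 1.92 and 1.41 in the LD pair (exact two-sided permutation p = 0.333). It uses summed rows, so both its size and its comparison between libraries depend on how the rows of each gene are weighted.

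In the list of lipin and phosphatidate genes, 46 genes were measured, 39 tested and 0 called, with 14 higher and 25 lower in LD. The median log2 change was -0.05 against -0.01 over all units tested, and 3 genes had an unadjusted limma p under 0.05, a share near the 6.34% of all units tested. The list was matched by symbol or description and includes genes described as inactive phospholipid phosphatases. The 3 most abundant genes were a diacylglycerol kinase delta (LOC101165102), which turns diacylglycerol back into phosphatidate, at 121.1 and 119.7 FPKM with short days and 123.5 and 147.3 with long days, the CDS2 gene LOC101157624, which opens the route to phosphatidylinositol, at 69.9 and 63.3 against 69.1 and 63.0, and dgkq, diacylglycerol kinase theta, at 50.1 and 49.4 against 54.6 and 53.6. These 3 genes, none of them called, were named by their level in FPKM summed over rows. That ranking depends on how the rows of each gene are weighted, and dgkb, at a mean of 51.71 FPKM, was nearly level with dgkq (51.92). The 3 genes given next are those with an unadjusted limma p under 0.05, picked after their values were seen. The mitochondrial acyltransferase gene LOC101156981 stood at 2.96 and 4.68 FPKM under short days and 0.762 and 0.799 under long days (log2 change -1.41, limma adjusted p = 0.6004), and it passed the filter through its SD values. The kinase gene dgkz was at 24.99 and 25.6 in the SD pair against 34.3 and 35.7 in the LD pair (log2 change 0.45, limma adjusted p = 0.6004), and gpam, a second mitochondrial acyltransferase, at 22.3 and 26.0 against 19.5 and 20.5. Of the subunits of the phosphatase that activates lipins, ctdnep1 was at 7.95 and 7.73 with short days and 7.44 and 7.60 with long days, and cnep1r1 at 8.12 and 8.59 against 7.84 and 8.16.

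**Figure D4:**
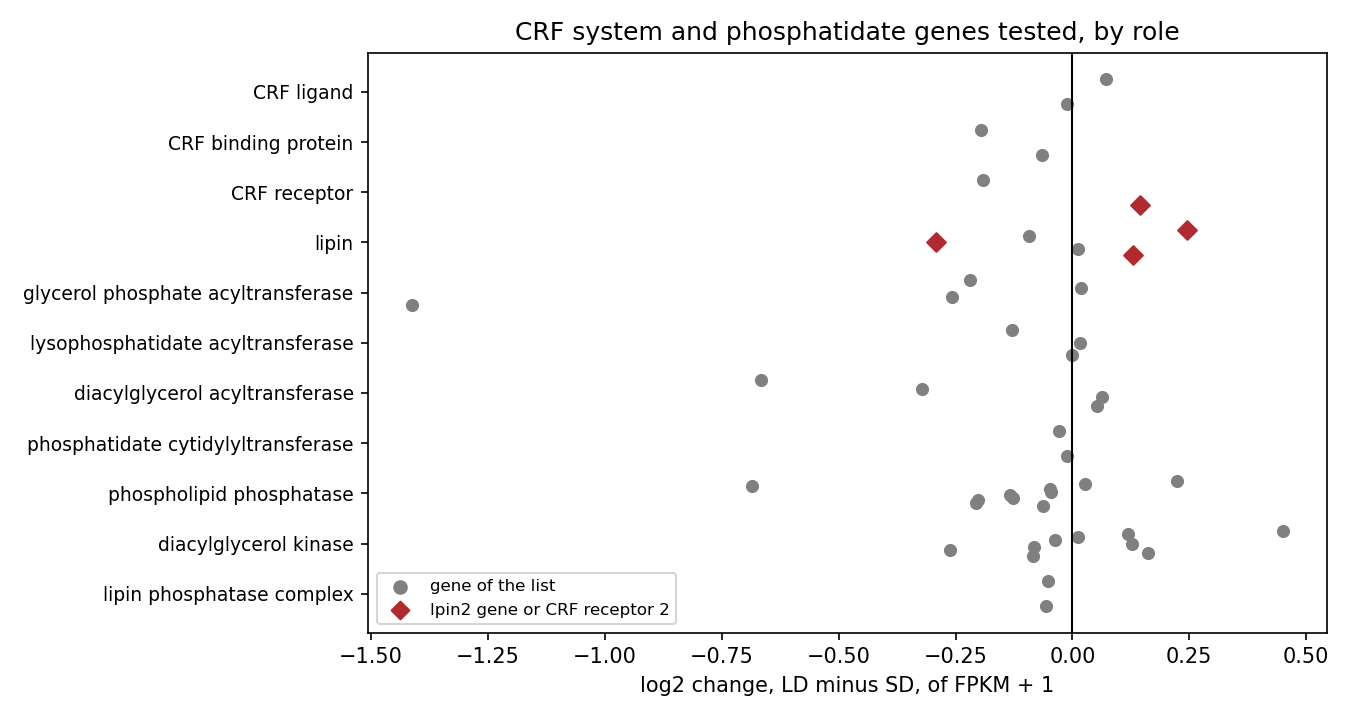
Log2 change of FPKM + 1, LD minus SD, of each tested gene of the CRF system list (6 genes) and of the lipin and phosphatidate list (39 genes), grouped by role, with small vertical offsets for legibility. Diamonds mark the lpin2 genes and CRF receptor 2, which lie between -0.29 and 0.24, and no gene of either list was called.

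Profiles most like those of MEDAKA053207 and CRF receptor 2 were found by distance between log2(FPKM + 1) values over the 4 libraries, each centred on its own mean, among 15422 tagged genes that averaged 1 FPKM or more. Nearest to MEDAKA053207 were LOC101157884, described as a cAMP-responsive element modulator, at 14.1 and 16.6 FPKM under short days and 25.04 and 16.6 under long days (distance 0.0281), LOC101174682, a cytosolic purine 5′-nucleotidase (0.0345), and LOC101170494, a myc target protein 1 homolog (0.0577). All have LD 1 as their highest library. That likeness holds for a pseudocount of 1 FPKM, which narrows the range of so scarce a feature to 0.78 on the log2 scale, and was not computed for another. Nearest to CRF receptor 2 were LOC101164150, the vesicular inhibitory amino acid transporter that loads GABA and glycine into vesicles, at 9.53 and 10.9 in the SD pair against 12.6 and 10.2 in the LD pair (distance 0.002), lsm6 (0.0184) and LOC101174459, described as T-cell acute lymphocytic leukemia protein 1 (0.0208). Within a distance of 0.2 there were 45 genes for MEDAKA053207 and 1312 for the receptor, so the latter is a common profile over 4 points.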

How the data were processed

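Per the labels' protocols, total RNA was treated with DNase and made into stranded mRNA libraries with a TruSeq kit. The tools listed, per the submitters' processing notes, were HISAT2 2.0.5 and StringTie 1.3.3b, with no role stated. No source used here names a genome build. The authors deposited 1 table of FPKM values with 1 column per library, per the file headers. Coordinates are those of the table. The table has 93896 rows, of which 52142 carry a gene tag, and 89.0% of those overlap the location of their hit, as do all tagged member rows.

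FPKM were summed by gene tag, with untagged rows as units of their own, and also kept row by row. Units with a mean of at least 1 FPKM entered limma 3.58.1 (R 4.3.3) as log2(FPKM + 1) (group as the only term, mean-variance trend, two-sided, Benjamini-Hochberg adjustment over 17030 units or 22810 rows, threshold 0.05). Single values were compared with exact permutation tests over libraries. In each library, the commonest low value of FPKM times length was read as the worth of 1 fragment. Of values above 0, 6.8% to 7.1% lie under it, so fragment numbers are approximate and carry no counting interval. Alternatives were another pseudocount, filter, variance model, scaling, naming of rows and pairing, and leaving out each library. The fit was tested on simulated data. Named genes were every member, named rows and rows of at least 1 FPKM in the lpin2 window, called genes of each list or else its 3 most abundant, and the 3 nearest profiles. Further genes were named outside that rule, after values were seen. They include phosphatidate genes with an unadjusted limma p under 0.05, subunits of the phosphatase that activates lipins, other CRF system genes and rows around CRF receptor 2. The members and lists were chosen with earlier results of these data known. Python 3.11.15, pandas 2.3.3 and matplotlib 3.10.9 were used. The files hold no sequences, and none is shown.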

Additional observations from a re-analysis of the deposited data

How the results depend on the processing

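No member, member row, gene of the CRF system or phosphatidate list, or row of the lpin2 window was called in the main fits. The same held under every alternative run on all 4 libraries, where the lowest limma adjusted p of a member was 0.717. With a pseudocount of 0.1 FPKM the log2 difference of MEDAKA053207 was 1.28 in place of 0.39, since that scale shrinks low values less, and with single libraries left out it ran from 0.13 (without LD 1) to 0.66 (without LD 2). That of CRF receptor 2 ran from 0.01 to 0.28 with single libraries left out. The change of lpin2 on chromosome 20 turned to -0.24 without LD 2 (0.73 without LD 1), and the cause was not tested. That of LOC101161583, under the filter, ran from -0.19 to 0.02. The same replicate numbers occur in both groups, and deviations from the group means of same-numbered libraries correlated at 0.039 across units. That value cannot show whether same-numbered libraries shared a batch or handling, and the labels state no pairing. With the replicate block, 0 members were called and the lowest adjusted p was 0.717. Over all rows the number called was 7 in the main fit and ran from 1 with the replicate block or no filter to 20 without the trend; over all summed units it was 1 and ran from 0 to 4. A filter of 5 FPKM left out MEDAKA053207, LOC101161583, lpin2 and LOC101174419. Length-weighted means of a gene's rows, an alternative chosen after seeing the data, called 0 of the 4 members tested. LOC101174419 fell under the filter there. By that measure the LD pair of CRF receptor 2 exceeded the SD pair, while its summed rows overlapped between the groups. The log2 change of the receptor was then 0.19 (limma adjusted p = 0.856). The levels of MEDAKA053207 and MEDAKA053224, at about 1 to 22 fragments, limit what their differences can show.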
